A study of Mus musculus with 4 samples.

Results

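Notch signalling genes were followed in the ureters of mouse embryos that lack the ΔN form of the transcription factor p63 in cells with Pax2-cre activity. The set was chosen by gene name, with earlier results of these data known. It holds 10 genes: the ligand genes Jag1, Jag2 and Dll1, the receptor genes Notch1, Notch2 and Notch3, and the target genes Nrarp, Hes1, Hey1 and Heyl. All array probes that carry one of these names were taken, 13 of 39429 gene probes. All 10 genes were among the 21501 genes tested. Of their probes, 12 passed the filter on dim signal and 1, a Dll1 probe, did not.

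Total RNA came from whole ureters of the NMRI strain at stage E15.5 of gestation. The mutants, called cKO here, carried Pax2-cre on 1 allele and 2 floxed ΔN alleles of Trp63, the gene of p63. The controls carried at least 1 floxed ΔN allele and no cre is listed for them, so in every result below the effects of the cre transgene and of the lost ΔNp63 cannot be told apart. On each of the 4 arrays 1 cKO RNA met 1 control RNA, both from females in replicates 1 and 2 and both from males in replicates 3 and 4. The cKO RNA was labelled red (AlexaFluor647) in replicates 1 and 3 and green (AlexaFluor555) in replicates 2 and 4. The labels do not say how many embryos entered an RNA or whether the replicates came from separate litters, so the p-values measure the spread between these samples. All ratios are log2 values of cKO over control, so negative values mean less transcript in cKO.

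In Notch signalling, a ligand of the Jagged or Delta family on one cell binds a Notch receptor on its neighbour. The receptor is then cut, and its intracellular part enters the nucleus, joins the DNA-binding protein RBPJ and switches on target genes such as those of the Hes and Hey families and Nrarp. In many epithelia the pathway takes part in the choice between basal and more differentiated cells, and in blood vessels it acts in endothelial and mural cells.

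The measurements rest on 60-base probes, and the first 30 bases of those behind the main results are shown, 5′ to 3′, with their position in build mm9 per the file headers. The Jag2 probe carried the call of this gene set. The Nrarp, Hes1 and first Notch1 probes had cKO levels that did not overlap those of controls. The second Notch1 probe differed from the first.
Jag2 (A_51_P451338, chr12:114146887-114146946): ttgtataaattattcaacggctgtcaggcg
Nrarp (A_51_P504354, chr2:25038038-25038097): ttttttgaatcttggttatgaacccaattt
Hes1 (A_55_P2046245, chr16:30067820-30067879): ttaaaatatcttcctttggggaagtttatt
Notch1, first (A_55_P2047168, chr2:26314630-26314689): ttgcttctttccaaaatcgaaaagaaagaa
Notch1, second (A_55_P2171897, chr2:26319440-26319499): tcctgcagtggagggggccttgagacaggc
The Jag2 and Notch1 probes lie on the minus strand and those of Nrarp and Hes1 on the plus strand. The first Notch1 probe starts at base 8221 of its transcript and the second at base 5898, per the files. Exon and UTR annotation of build mm9 was not used here.

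The median raw signal of an array was 382 to 416 for green and 519 to 617 for red, with 71.8% to 77.0% of the spots well above background. The arrays did not resemble each other equally: across all genes, Pearson r between 2 arrays ran from -0.06 (replicates 2 and 4) to 0.62 (replicates 2 and 3), and Spearman rho for replicates 2 and 4 was -0.32. These coefficients are across genes, which are no independent replicates. Trp63 itself had ratios of -1.39, -1.18, -1.30 and -1.62 in replicates 1 to 4, and averaged -1.37 ± 0.18 (SD, n = 4) and limma adjusted p = 0.00323. No source used here says whether this probe lies inside the floxed stretch, so it may check nothing.

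Among the 10 Notch genes 1 fell, Jag2, and none rose (limma, adjusted p under 0.05). Over all genes tested, 0.712% were called lower and 0.526% higher. With no adjustment, p was under 0.05 for 5 of the 10, all of them lower, and for 8.04% of all genes, 4.31% lower and 3.73% higher. The median log2 ratio of the set was -0.28, against -0.000237 over all genes, and 9 of the 10 means were below 0. On single arrays, 10, 8, 7 and 7 of the 10 genes were below 0 in replicates 1 to 4, where 51.5%, 51.0%, 51.8% and 48.7% of all genes were. Ratios were below 0 on all 4 arrays for 5 of the genes, Jag2, Dll1, Notch1, Nrarp and Hes1, as for 7.66% of all genes. For Notch1 this holds at its brighter probe only. Because the genes were chosen with earlier results of these data known, these shares describe the set and do not test it. In RNA of whole ureters, fewer cells of a type and less RNA per cell cannot be told apart. Among all genes, 7.69% were above 0 on all arrays.

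**Figure D1:**
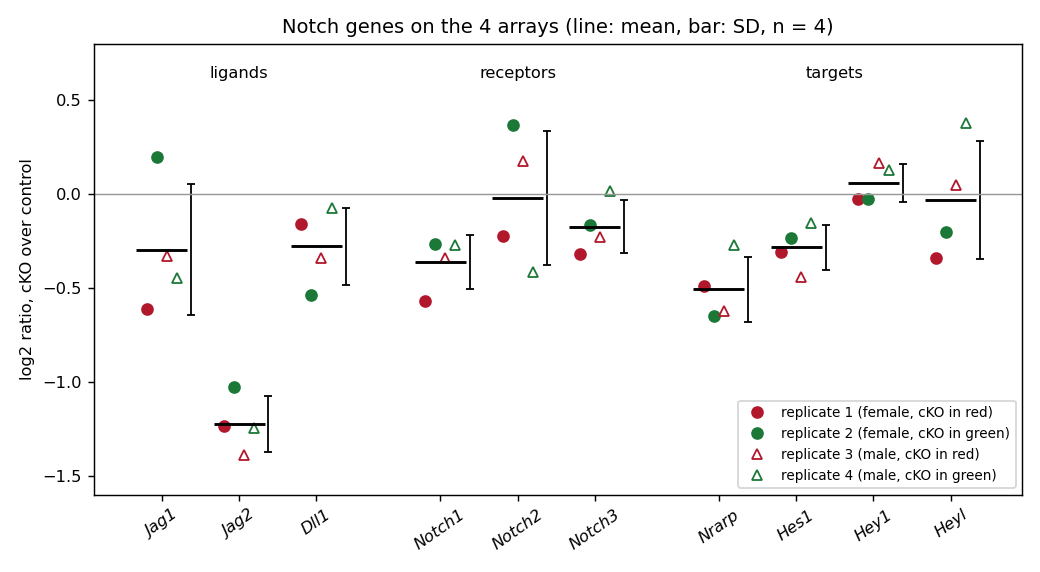
Log2 ratio of cKO over control for each Notch gene on each array, with filled circles for female and open triangles for male replicates, red where the cKO RNA was labelled red and green where it was green. Horizontal lines are means and bars SDs (n = 4). Jag2 lies between -1.39 and -1.03 on all arrays, apart from the other 9 genes, and Jag1, Notch2, Notch3, Hey1 and Heyl have points on both sides of 0.

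Jag2, which encodes the ligand Jagged 2, had normalised log2 intensities of 11.67, 11.69, 11.93 and 11.83 in the control RNAs of replicates 1 to 4. In the matching cKO RNAs it was at 10.43, 10.66, 10.54 and 10.58. Every cKO value was below every control value, a separation found for 3.33% of all genes in this direction. Its ratios were -1.24, -1.03, -1.39 and -1.25. They averaged -1.22 ± 0.15 (SD, n = 4), which is 2.34-fold lower, with a 95% interval from -1.42 to -1.03 and limma adjusted p = 0.00258. By p-value the gene ranked 36 of 21501. The Jag2 probe was bright, with raw signals from 23.1 to 127 times the local background, and the 4 spots on each array differed by an SD of 0.02 to 0.05 in log2 ratio. Left out in turn, no array moved the fitted ratio outside -1.28 to -1.17 or ended the call. Such a fit weighs both dye orientations equally, so its fitted ratio is not the plain mean of the arrays left.

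Jag1, the gene of Jagged 1, gave a different picture. Its levels were 12.99, 12.49, 12.85 and 12.85 in the control RNAs and 12.38, 12.69, 12.52 and 12.41 in the cKO RNAs, so the groups overlapped. It was lower in cKO in replicates 1, 3 and 4 (-0.61, -0.33 and -0.44) and higher in replicate 2 (0.20). The mean of -0.30 ± 0.35 (SD, n = 4) did not pass the test (limma adjusted p = 0.634), with a 95% interval from -0.59 to 0.00347. Without replicate 2 the fitted ratio was -0.46 with adjusted p = 0.0152, in a fit that called 2.37% of all genes lower. With all arrays this share was 0.712%. Jag1 did not pass when replicate 1, 3 or 4 was left out (fitted ratios -0.23, -0.37 and -0.13). The spread between arrays was large although the probe was bright, at 91.0 to 270 times background, and its 4 spots agreed to an SD of at most 0.05.

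Jag2 had a lower ratio than Jag1 on every array. The difference of the 2 log2 ratios, Jag2 minus Jag1, was -0.63, -1.23, -1.06 and -0.80 from replicate 1 to replicate 4 and averaged -0.93 ± 0.27 (SD, n = 4). With 4 arrays, an exact sign permutation test of such a difference cannot go below p = 0.125.

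Dll1 encodes a Delta ligand. Its brighter probe (A_51_P306017, chr17:15504623-15504682) had control levels of 10.02, 10.42, 10.19 and 10.14 and cKO levels of 9.87, 9.88, 9.85 and 10.07. Each cKO RNA was below its partner, but the cKO level of replicate 4 was above the control level of replicate 1. The ratios were -0.16, -0.54, -0.34 and -0.07, a mean of -0.28 ± 0.21 (SD, n = 4), and limma adjusted p was 0.504. Without replicate 4 the fitted ratio was -0.39 with adjusted p = 0.0185, in a fit that called 3.98% of all genes lower. Dll1 did not pass when replicate 1, 2 or 3 was left out (fitted ratios -0.32, -0.16 and -0.23). The other Dll1 probe (A_55_P1986900, chr17:15513726-15513785) was not well above background on any array in either RNA, at 1.07 to 1.46 times the local background, and was not tested. Jag2 minus Dll1 was below 0 on every array, with a mean of -0.95 ± 0.31 (SD, n = 4).

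Of the receptor genes 0 of 3 passed the test (limma). Without adjustment, p was under 0.05 for 1 of them, Notch1, which was lower, as were 4.31% of all genes at that threshold. Notch1, the receptor gene with the lowest ratio, had levels of 8.85, 8.76, 8.79 and 8.71 in the control RNAs at its brighter probe. The cKO RNAs were at 8.28, 8.50, 8.45 and 8.44, all of them below the lowest control. Its ratios were -0.57, -0.26, -0.34 and -0.27, a mean of -0.36 ± 0.14 (SD, n = 4) with a 95% interval from -0.55 to -0.17, and limma adjusted p was 0.141. The adjusted p was 0.0400 when replicate 2 was left out and 0.0315 when replicate 4 was left out. Those fits called 2.37% and 3.98% of all genes lower, with 1 residual degree of freedom per gene. Notch1 did not pass without replicate 1 or without replicate 3. With the channels taken as 8 separate RNAs, which ignores the pairing on arrays, the adjusted p was 0.0229 (1.01% of all genes lower).

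The second Notch1 probe did not give the same value. Its ratios were -0.25, 0.35, -0.18 and -0.21 on the 4 arrays, averaging -0.07 ± 0.28 (SD, n = 4), and cKO and control levels overlapped. The sign was negative in replicates 1, 3 and 4 at both probes and differed in replicate 2. Tested by themselves among all 28611 kept probes, of which 0.58% were called lower and 0.433% higher, the first had adjusted p = 0.159 and the second 1.00 (limma). With the mean of all kept probes in place of the brighter one, the ratio of Notch1 was -0.22 and did not pass (limma adjusted p = 0.559). Raw signals of the probes were 5.03 to 14.3 and 3.57 to 13.7 times background.

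**Figure D2:**
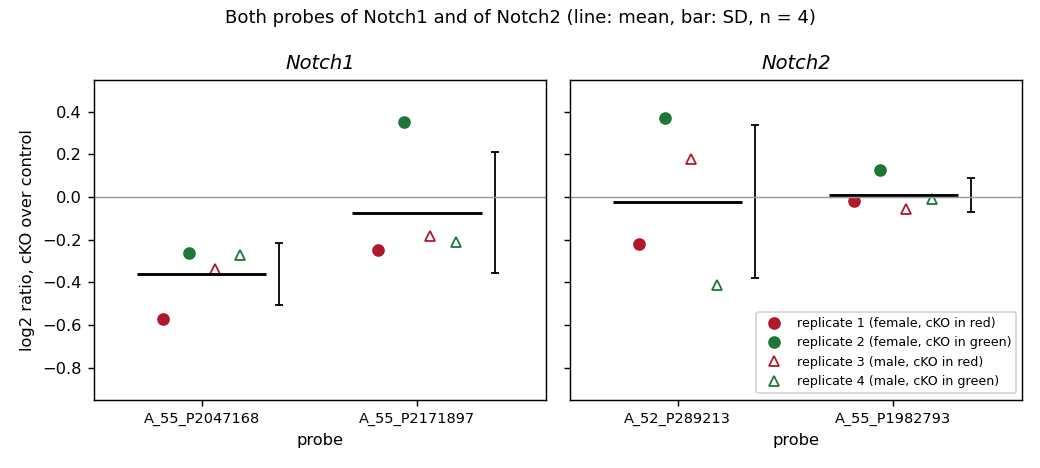
Log2 ratio of cKO over control on each array for both probes of Notch1 (left) and both of Notch2 (right), with the replicates marked by sex and dye as in the key. Lines are means and bars SDs (n = 4). The first Notch1 probe is below 0 in all replicates, whereas the second is at 0.35 in replicate 2. The Notch2 probes have means near 0 with unequal spread.

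Notch2 had no common direction. Its brighter probe (A_52_P289213, chr3:97953914-97953973) gave ratios of -0.22, 0.37, 0.18 and -0.41, a mean of -0.02 ± 0.36 (SD, n = 4), and its levels overlapped, at 13.05 to 13.44 in controls and 13.02 to 13.42 in cKO. The sign of the fitted ratio turned with median centring (0.04), without replicate 1 (0.08) and without replicate 4 (0.17), none of them past the threshold. The second Notch2 probe (A_55_P1982793, chr3:97951233-97951292) was at -0.02, 0.13, -0.05 and -0.01, a mean of 0.01 ± 0.08 (SD, n = 4). Its raw signals were 2.29 to 4.69 times background. Adjusted p was 1.00 for both (limma, all kept probes).

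Notch3, a receptor known from vascular smooth muscle and other mural cells, had ratios of -0.32, -0.16, -0.23 and 0.02. The mean was -0.17 ± 0.14 (SD, n = 4), with a 95% interval from -0.36 to 0.01 and limma adjusted p = 0.690. Control levels were 13.71, 13.69, 13.68 and 13.57 and cKO levels 13.40, 13.53, 13.45 and 13.59. The groups overlapped only through replicate 4, whose cKO RNA was above its own control.

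The target genes fell into a pair with negative ratios on every array, Nrarp and Hes1, and a pair without, Hey1 and Heyl. None of the 4 passed the test (limma). Unadjusted p was under 0.05 for Nrarp and Hes1, 2 genes, both lower, against 4.31% of all genes. Nrarp encodes an ankyrin repeat protein that is induced by Notch and acts back on the pathway. Its control levels were 12.19, 12.20, 12.21 and 11.88 and its cKO levels 11.71, 11.56, 11.59 and 11.61. All cKO values lay below all control values, and the control RNA of replicate 4 was lower than the other 3.

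The ratios of Nrarp were -0.49, -0.65, -0.62 and -0.27, averaging -0.51 ± 0.17 (SD, n = 4), which is 1.42-fold lower. The 95% interval ran from -0.73 to -0.29. Limma adjusted p was 0.0807, so Nrarp is not counted among the genes that fell. Leaving out replicate 2 gave a fitted ratio of -0.41 and adjusted p = 0.0162, in a fit that called 2.37% of all genes lower. Leaving out replicate 4 gave a fitted ratio of -0.60 and adjusted p = 0.00187, with 3.98% of all genes lower. Adjusted p was 0.00967 with a sex term (1.44% of all genes lower), 0.0246 with no dye term but the array kept as replicate block (1.24%) and 0.0247 as 8 separate RNAs (1.01%). The sex-term fit leaves 1 residual degree of freedom per gene, and the fit of 8 RNAs ignores the pairing on arrays. Nrarp did not pass without replicate 1 or without replicate 3. Nor did it in the deposited value table (limma adjusted p = 0.384) or with dim probes kept (0.201). Those fits called 1 and 86 genes in all, against 266 in the main fit. With genes holding an exact 0 left out of the deposited table, 333 genes were called and Nrarp was at 0.0649.

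Hes1, a repressor of the basic helix-loop-helix class, was at 12.30, 12.31, 12.41 and 12.26 in control RNAs and at 11.99, 12.08, 11.97 and 12.11 in cKO RNAs, with no overlap. Its ratios of -0.31, -0.23, -0.44 and -0.15 had a mean of -0.28 ± 0.12 (SD, n = 4). The 95% interval was -0.46 to -0.10 and limma adjusted p was 0.239. Adjusted p was 0.0478 without replicate 4 (3.98% of all genes lower) and 0.0426 with the channels as 8 separate RNAs (1.01%). The latter fit ignores the pairing on arrays. Left out in turn, replicates 1, 2 and 3 gave no call of Hes1. Hes1 thus separated the groups on the level scale by a shift too small to pass the test over all genes. Together with Jag2, Notch1 (at its brighter probe only) and Nrarp, it made 4 of 10 Notch genes whose cKO levels lay wholly below those of controls. The share of all genes was 3.33%, but the set was chosen with earlier results known, so this comparison tests nothing. None had cKO levels wholly above, beside 3.05% of all genes.

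**Figure D3:**
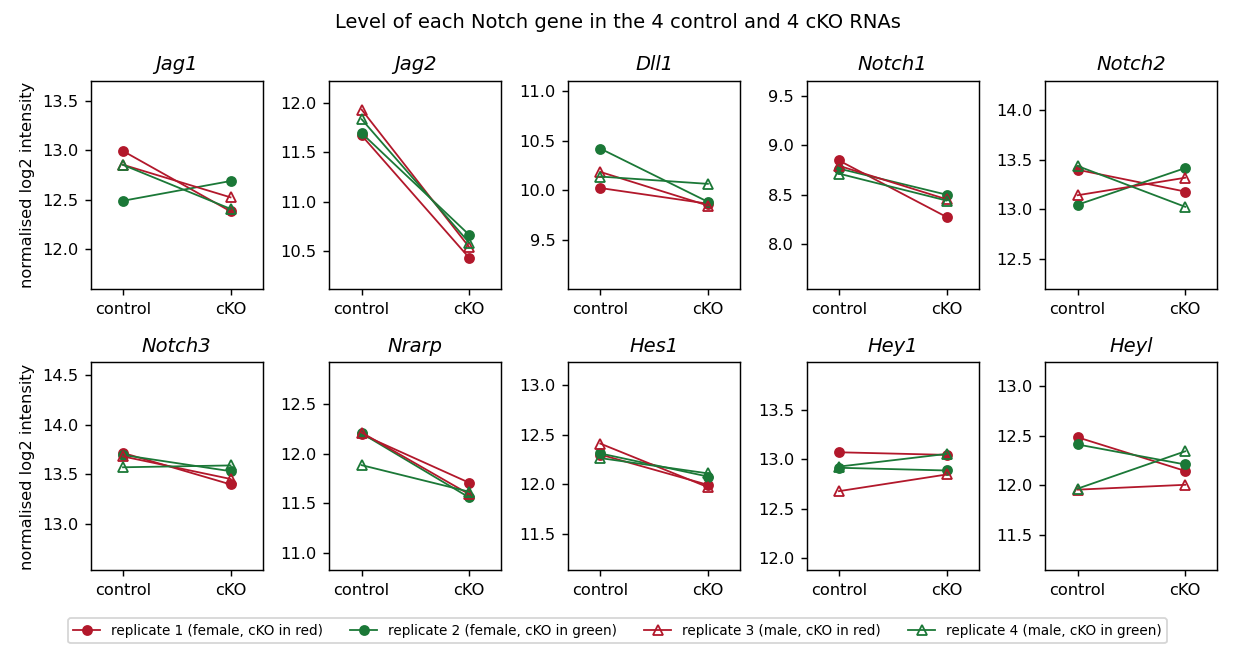
Normalised log2 intensity of each Notch gene in the control and cKO RNA of each array, joined by a line, at the gene's main probe. Each panel spans the same range of log2 units around the gene's own level, so slopes can be compared and levels between panels cannot. Lines of Jag2, Nrarp, Notch1 and Hes1 all go down without overlap of the groups, and lines of Notch2 cross.

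Hey1 and Heyl encode related repressors that are known targets of Notch in blood vessels and other tissues. Hey1 had ratios of -0.03, -0.03, 0.17 and 0.13 and a mean of 0.06 ± 0.10 (SD, n = 4), the only mean above 0 in the set, with a 95% interval from -0.13 to 0.25 (limma adjusted p = 1.00). Heyl had ratios of -0.34, -0.20, 0.05 and 0.38, a mean of -0.03 ± 0.31 and a 95% interval from -0.33 to 0.27 (limma adjusted p = 1.00). The sign of the fitted ratio of Heyl turned with median centring (0.03), without replicate 1 (0.07) and without replicate 2 (0.12). Both genes overlapped between the groups, Hey1 at 12.68 to 13.07 in controls and 12.85 to 13.06 in cKO, and Heyl at 11.96 to 12.49 and 12.01 to 12.34.

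For Heyl and Hey1 both female arrays were below 0 and both male arrays above. For Hey1 the male minus female difference was 0.17, with an unadjusted p of 0.517 for the cKO-by-sex test. For Heyl it was 0.48, and the cKO-by-sex test gave an unadjusted p of 0.0735 and limma adjusted p of 1.00. Without the dye term the unadjusted p was 0.0297 and the adjusted p again 1.00. Control levels of Heyl were 12.49 and 12.41 in the female and 11.96 and 11.97 in the male RNAs, whereas cKO levels were 12.15 and 12.21 in female and 12.01 and 12.34 in male RNAs. For 0 of 10 Notch genes did the cKO effect differ between the sexes by limma's test (0 also at an unadjusted p under 0.05). With 2 arrays per sex and 1 residual degree of freedom per gene, this count does not show that the sexes are alike. Among all genes 0.0698% did, 0.0372% with a lower and 0.0326% with a higher ratio in males. None of the 10 passed the test of a dye effect, nor did any of the 21501 genes. The fitted dye effect of the 10 genes ran from -0.17 to 0.03 (red over green), with Jag1 at the low end.

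Averaged over their genes, the ligands were at -0.67, -0.46, -0.69 and -0.59 in replicates 1 to 4, which rests largely on Jag2. The receptors averaged -0.37, -0.02, -0.13 and -0.22, and the targets -0.29, -0.28, -0.21 and 0.02. With Jag2 included, the ligand average was lowest on every array, and the order of receptors and targets changed between arrays. In replicate 2, where Jag1 was at 0.20, the place of the ligands below the targets rests on Jag2.

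Other genes of the pathway were taken from a list of 54, of which 52 were tested. Of these, 1 fell and none rose (limma). Unadjusted p was under 0.05 for 3 of the 52, Dlk2 and Dner lower and Dtx4 higher, a share no larger than the 8.04% of all genes. The list had a median of -0.03, and 30 of its means were below 0. The gene that fell was Dlk2, which encodes a Delta-like protein that lacks the domain typical of Notch ligands. Its ratios were -0.46, -0.71, -0.81 and -0.59, averaging -0.64 ± 0.15 (SD, n = 4), which is 1.56-fold lower (limma adjusted p = 0.0346). Levels were 10.46, 10.84, 11.00 and 10.67 in controls. In cKO they were 10.13, 10.19 and 10.09 in replicates 2 to 4 and lower than these in replicate 1, with no overlap. A second Dlk2 probe gave -0.57 ± 0.20 and missed the threshold among all kept probes (adjusted p = 0.0612). The main probe missed it when replicate 3 was left out (fitted ratio -0.56, adjusted p = 0.0789) and when dim probes were kept (adjusted p = 0.110).

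The remaining ligands and receptors included Dner, at -0.24 ± 0.12 (SD, n = 4) and below 0 on every array (limma adjusted p = 0.413). The 4 others of this group had means between -0.08 and 0.08. Of 5 glycosyltransferases that modify the receptors none passed (median -0.05), and Poglut1 had the smallest p at -0.17 ± 0.17. Of 9 genes of receptor cleavage, among them the presenilins and Adam10, none passed (median -0.06, range -0.10 to 0.18). Of 14 genes of the RBPJ complex and its corepressors none passed (median 0.02, range -0.12 to 0.18), with Tle3 at 0.17 ± 0.05 and above 0 on every array (limma adjusted p = 0.628). Of 13 genes of endocytosis, ubiquitination and inhibition none passed (median -0.02), and Dtx4 was at 0.21 ± 0.07 (limma adjusted p = 0.479). Of 5 other Hes and Hey genes none passed (median 0.03, range -0.13 to 0.14). At an unadjusted p under 0.05, these 5 groups held 0, 0, 0, 1 (Dtx4, higher) and 0 genes.

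**Figure D4:**
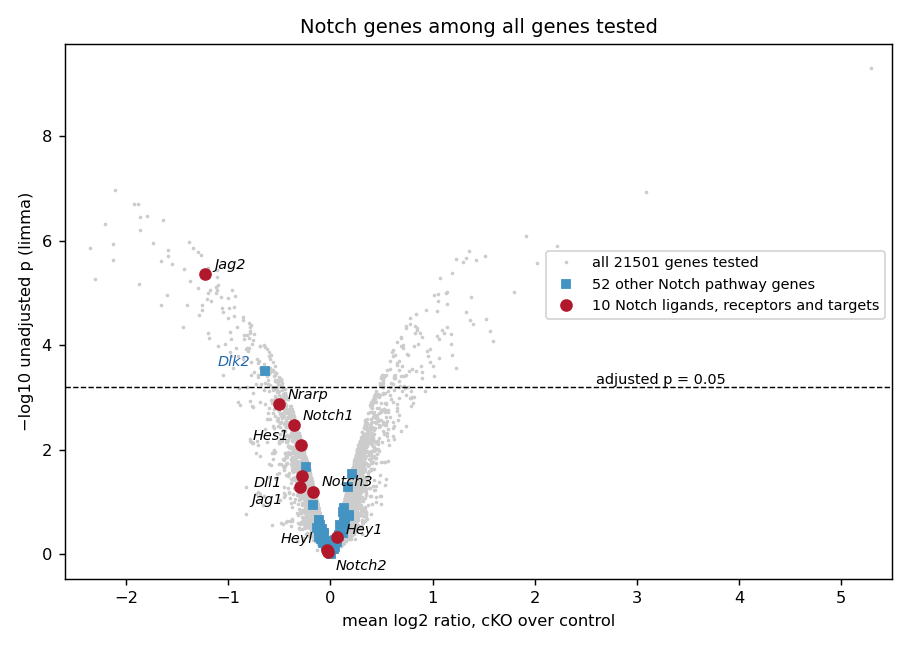
Mean log2 ratio of cKO over control against −log10 of the unadjusted limma p for all 21501 genes tested (grey), 52 other Notch pathway genes (blue squares) and the 10 Notch genes (red circles). The dashed line marks adjusted p = 0.05. Jag2 and Dlk2 lie above it, and Nrarp is the nearest below.

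Markers of cell types that the whole ureter holds were measured in the same RNAs, and their part in the Notch results was not tested. Of 9 basal epithelial markers 7 fell and none rose, with a median of -1.19. Krt5 was at -1.87 ± 0.42, Cdh3 at -1.66 ± 0.42 and Krt14 at -0.98 ± 0.29 (SD, n = 4). The level averaged over all 9 was 9.77 to 9.96 in cKO RNAs and 10.84 to 11.22 in control RNAs. The 2 others, Itga6 at -0.14 ± 0.29 and Col17a1 at -0.11 ± 0.17, did not pass. Of 10 general epithelial genes, 1 rose (Krt18, 0.50 ± 0.14) and none fell, with a median of -0.10. At an unadjusted limma p under 0.05, 2 were lower, Cdh1 (-0.40 ± 0.26) and Cldn4 (-0.23 ± 0.11). At that threshold 3 were higher, Krt18, Krt8 (0.37 ± 0.19) and Elf3 (0.33 ± 0.19). Over all genes 4.31% were lower and 3.73% higher by this measure. Averaged levels were 14.44 to 14.62 in cKO and 14.51 to 14.61 in controls, and Epcam was at -0.10 ± 0.08. Of 6 superficial cell genes 1 fell (Upk2, -0.54 ± 0.11) and 1 rose (Krt20, 1.92 ± 0.19), with a median of -0.000282. Without adjustment, 1 was lower and 2 were higher (Krt20 and Upk3b, the latter at 0.32 ± 0.17).

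Of 10 endothelial markers 0 changed (limma; 0 at an unadjusted p under 0.05), with a median of 0.12 and averaged levels of 13.06 to 13.19 in cKO and 12.96 to 13.11 in control RNAs. Of 10 smooth muscle and mural cell markers 0 changed (0 at an unadjusted p under 0.05; median -0.04). The mural markers Pdgfrb and Rgs5 were at -0.06 ± 0.13 and -0.20 ± 0.37. Of 10 neuron and glia markers 0 changed (1 lower at an unadjusted p under 0.05; median -0.13), and of 10 mesenchymal markers 0 changed (1 higher at an unadjusted p under 0.05; median -0.02).

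**Figure D5:**
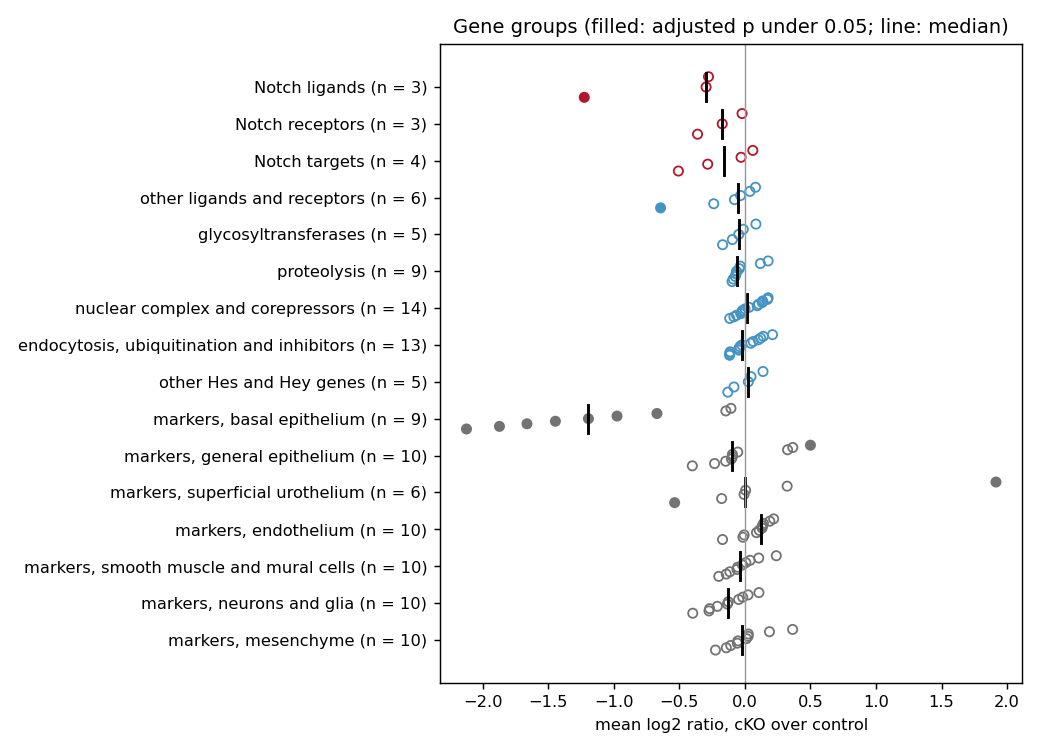
Mean log2 ratio of cKO over control for each gene (n = 4 arrays) of the Notch groups (red), the other pathway groups (blue) and marker lists (grey). Filled points passed adjusted p under 0.05, black lines are group medians, and the vertical spread within a row only separates points. Jag2 and Dlk2 are the filled Notch points, beside 7 filled points among the basal epithelial markers, 1 among the general epithelial genes (Krt18) and 2 among the superficial urothelial genes (Upk2 lower, Krt20 higher).

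The 5 genes whose 4 ratios were most like those of Jag2, by root mean square difference over the 4 arrays, were Pdgfa, Fat2, Nfe2l3, Aldh1a1 and Tmprss13. Their distances ran from 0.09 to 0.13 log2 units. Pdgfa, which encodes a platelet-derived growth factor, had -1.16, -0.88, -1.38 and -1.24 by array and averaged -1.16 ± 0.21 (SD, n = 4). Fat2, a large cadherin, had -1.18, -0.95, -1.32 and -1.37, a mean of -1.20 ± 0.19. Since the measure uses the ratios themselves, it mainly finds genes with a decrease of the same size, and these 5 had means from -1.29 to -1.12.

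In the table of RefSeq promoter windows used here (GRCm38.p6, 300 bases around the transcription start), 7 of the 10 genes were matched, with 8 windows. Hes1, Hey1 and Heyl were not analysed here. None of the 8 windows held the core of the RBPJ motif, TGGGAA, on either strand, against 25.6% of 32851 windows of all genes, and none held a p53 family half-site, against 8.36%. No match says only that these letters are not in the window.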

How the data were processed

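Spot intensity values of 4 arrays with 2 channels were deposited by the authors. Per the file headers, the spots were read with Feature Extraction 10.7.3.1 of Agilent. The mean signal and median local background were used, and, of other columns, the deposited flags for nonuniform spots, saturation and signal well above background. No spot was saturated. A deposited table holds the authors' log2 ratios, whose zeros (32.2% to 32.6% of values) are unexplained in the sources used here. Its direction was cKO over control (slope 0.943 to 0.956 against the processed signals).

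Background was corrected with normexp (offset 50), followed by loess within arrays with control spots at weight 0. Nonuniform spots (17 to 33 per array) were left out and the 4 spots of a probe averaged. Probes were kept where at least 0.5 of spots were well above background on all 4 arrays in one of the RNAs (28611 probes), and the brightest kept probe stood for a gene. Symbols were updated through a RefSeq table (GRCm38.p6). Levels are channel values after Aquantile normalisation. Limma 3.58.1 in R 4.3.3 fitted the 4 ratios with a dye term. The array is the pair. P-values are two-sided, Benjamini-Hochberg adjusted over all genes tested. Errors are SDs of 4 ratios. On simulated ratios for 21501 genes, the fit recovered 47.3% of 1.5-fold, 92.5% of 2-fold and 99.4% of 4-fold changes, with 4.55% false calls. The simulated noise was independent between arrays, with variances drawn from limma's own fitted prior. The real arrays departed from this (Spearman rho -0.32 for replicates 2 and 4), so these figures hold for the simulated setting only.

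The genes and lists were chosen with earlier results of these data known. Named genes are all members, Trp63, other pathway genes past the threshold, up to 2 of smallest p per pathway group as examples, and the 5 genes most like a called member. Marker examples were chosen after their values were seen. Alternatives are given in the closing section. The number of arrays limits the precision.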

Additional observations from a re-analysis of the deposited data

Results flagged for a closer look

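Among 40 groups of 4 values checked (ratios, cKO levels and control levels of the 12 kept probes, and ratios of 4 other pathway genes), 3 held 1 value far from the rest. Chance flags about 5% of such groups. The second Notch1 probe had a log2 ratio of 0.35 in replicate 2, against values from -0.25 to -0.18 in the other 3. The control level of Nrarp was 11.88 in replicate 4, against 12.19 to 12.21 in the others, and the ratio of that array was the closest to 0. Dner had a log2 ratio of -0.41 in replicate 3, against -0.19 to -0.15 in the others.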

How the results depend on the processing

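Under 16 alternatives, Jag2 kept its direction, with fitted log2 ratios from -1.28 to -1.17. It passed the test in 15 of them. The exception was the deposited value table used whole, where limma called 1 gene in all, 0 Notch genes and 0 other pathway genes. Jag2 was at -1.26 there (adjusted p = 0.180). Over the alternatives its adjusted p ran from 5.33e-17 to 0.180. The smallest value came from the fit with a sex term, which left 1 residual degree of freedom per gene. With genes holding an exact 0 left out, an alternative chosen after seeing the data, Jag2 (adjusted p = 0.00108) and Dlk2 passed. The number of the 10 Notch genes that fell was 1 with all arrays, 2 with no dye term and the replicate block by array kept (Jag2, Nrarp), 2 with a sex term (the same genes) and 4 with 8 separate RNAs and no replicate block (Hes1, Jag2, Notch1, Nrarp). Leaving out 1 array gave 1 to 5: 4 without replicate 2 (Jag1, Jag2, Notch1, Nrarp) and 5 without replicate 4 (Dll1, Hes1, Jag2, Notch1, Nrarp). In those fits all genes called numbered 939 and 1608, against 266, and 1 residual degree of freedom was left per gene. Of the other pathway genes, 0 fell without a filter on dim probes, and 0 to 1 when 1 array was left out. Of these 0 rose with all arrays and 0 to 1 when 1 array was left out (Snw1 without replicate 4). Over all genes, 86 were called without the filter, 460 with no dye term, 386 as 8 RNAs and 543 with a sex term. Notch2 turned sign with median centring (0.041), and its fitted ratio without an array ran from -0.22 to 0.17. Heyl turned with median centring (0.032), and its fitted ratio without an array ran from -0.17 to 0.12. The causes were not tested.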
